A study of Mus musculus with 27 samples.

Results

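The genes followed here are 10 members of the Notch pathway measured in mouse hearts: the receptors Notch1 and Notch2, the ligands Dll4 and Jag1, the DNA-binding partner Rbpj, and the targets Hey1, Hey2, Heyl, Hes1 and Nrarp. They were chosen by name and not by their values. All 10 of 10 were found among the 24025 genes of the bulk table and among the 19020 genes of the single-cell table. The question was where and when these genes were expressed, and whether their levels differed in hearts that carried a deletion of Hand2os1.

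Hand2os1, also called Hand2as or Uph, is a long non-coding RNA gene beside Hand2, the gene of a transcription factor of the developing heart. Per the labels, all mice were C57BL/6, allele F removes the gene over its full length and allele D removes its distal part. Bulk mRNA came from whole hearts at E11.5, E being the embryonic day (3 F/+ and 3 F/F), from ventricles at E16.5 (3 F/+ and 3 F/F) and from cardiomyocytes of mice aged 8 weeks (5 +/+, 2 D/+ and 6 D/D). The controls of both embryonic groups thus carried 1 deleted allele. A pair of droplet single-cell libraries, labelled +/+ and F/F, was made at E11.5, each from the living cells of 6 hearts pooled. Nothing in the labels says that bulk replicates came from separate animals, so p-values measure only the spread between these samples.

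Notch receptors are cut when a ligand on a neighbouring cell binds them, and the freed part enters the nucleus. There it joins RBPJ on DNA and switches on target genes, among them the repressors of the Hes and Hey families and Nrarp, which feeds back to limit the signal. In the embryonic heart, Notch1 in the endocardium is known for its part in the growth of the trabeculae and in the formation of valve mesenchyme. Hey2 is known as a gene of compact ventricular muscle, and Dll4 as a ligand of arterial endothelium and endocardium.

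Promoters of the 2 members that rose most between E11.5 and E16.5, Hey2 and Nrarp, are shown because a match to a motif of the pathway was found in each. RefSeq (assembly GRCm38.p6, equal to mm10) held promoters for 7 of the 10 members, and Hey1, Heyl and Hes1 had none in the table used. Each sequence runs 5′ to 3′ on the strand of the gene, from 250 bases before its start to 10 bases after it. Hey2 lies on the minus strand, and the sequence covers chr10:30842774-30843033. Nrarp lies on the plus strand, and the sequence covers chr2:25180508-25180767. Capitals mark the matches.
Hey2: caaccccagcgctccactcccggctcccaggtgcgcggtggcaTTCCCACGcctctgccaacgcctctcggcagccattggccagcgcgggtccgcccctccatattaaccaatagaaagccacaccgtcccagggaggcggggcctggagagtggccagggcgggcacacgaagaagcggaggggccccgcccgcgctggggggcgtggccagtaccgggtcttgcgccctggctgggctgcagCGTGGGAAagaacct
Nrarp: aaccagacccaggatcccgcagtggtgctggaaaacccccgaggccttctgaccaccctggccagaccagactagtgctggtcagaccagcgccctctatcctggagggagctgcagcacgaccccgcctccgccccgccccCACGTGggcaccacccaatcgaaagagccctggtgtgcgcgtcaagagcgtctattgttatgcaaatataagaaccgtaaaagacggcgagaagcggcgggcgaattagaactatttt

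The motif bound by RBPJ was searched as CGTGGGAA on both strands. The Hey2 promoter held it across the start site and again, on the other strand (TTCCCACG), from 207 to 200 bases before it. It was present in 241 of 32851 promoters of the same length (0.734%) and in no other promoter of the 7 members. The shorter core TGGGAA, which lies inside it, was found in 25.6% of promoters, and among the members in those of Hey2 and Rbpj. The E-box CACGTG, a site type read by Hes and Hey proteins, was found in the Nrarp promoter and in 7.15% of all promoters. The related CACGCG was found in the promoters of Dll4, Jag1 and Notch2 and in 9.27% of all. A match describes these letters and is no measure of binding.

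In the GENCODE M21 annotation (mm10), 4 of the members lie on chromosome 2: Nrarp at chr2:25180758-25183339, Notch1 at chr2:26457903-26516663, Dll4 at chr2:119325784-119335962 and Jag1 at chr2:137081456-137116644. Hey1 (chr3:8663359-8667256) and Notch2 (chr3:98013527-98150361) share chromosome 3. Heyl lies at chr4:123233556-123249875, Rbpj at chr5:53466152-53657362, Hey2 at chr10:30832359-30842801 and Hes1 at chr16:30064384-30067796. Values are per gene and cover exons only as far as the authors' counting did, which is not given in the sources used here.

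Bulk values were FPKM, which set reads against the length of a transcript and the size of a library, so read depth is unknown; between 9495 and 11641 genes reached 1 FPKM per library. At E11.5 all 6 libraries listed Hand2os1 at 0, so its value checks no label there. At E16.5 it was 0.37 to 1.40 FPKM in F/+ and 0 in F/F. At 8 weeks it was 6.90 to 13.48 FPKM in 4 +/+ libraries and 0 in the library labelled +/+ replicate 5, against its label. It was 5.25 and 6.17 FPKM in D/+ and 0 to 2.67 in D/D, where part of the gene remains. In single cells it had 1 UMI (unique molecular identifier, a counted transcript) in the library labelled +/+ and 9 in the one labelled F/F, against the labels. Whether those tags lie inside the deleted part is not given in the sources used here, and the single-cell libraries are named by their labels throughout. The 8-week libraries labelled +/+ replicate 5 and D/D replicate 6 stood apart from the other 11 in a clustering of all genes.

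At E11.5 the members divided by cell type, and most were highest in endothelium and endocardium. Cells were clustered without the pathway's genes and named from marker lists, which gave 5871 cells in 19 clusters. Levels are CPM, the UMIs of a gene scaled to the total of its class, over both libraries. Of the 10 members, 7 were highest in the endothelial and endocardial-like cells among the 5 large classes. The exceptions were Hey1 and Rbpj, highest in epicardial-like cells, and Notch2, highest in mesenchymal-like cells.

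Notch1 stood at 121 CPM in endothelial and endocardial-like cells, 27.5 in mesenchymal-like, 6.04 in epicardial-like, 1.62 in cardiomyocyte-like and 1.03 in erythroid-like cells. The endothelial class held 55.7% of its 1259 UMIs and 6.69% of all UMIs. Notch1 was thus mostly a transcript of the endothelial class, with mesenchymal-like cells next. Notch2 had another pattern, with 22.1 CPM in mesenchymal-like, 20.02 in epicardial-like, 6.75 in endothelial and 5.02 in cardiomyocyte-like cells.

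The ligands differed in spread. Dll4 had 92 UMIs in all, and 90 of them (97.8%) were in the endothelial class, at 15.6 CPM. It had 1 UMI in cardiomyocyte-like cells, 1 in mesenchymal-like cells and none in epicardial-like or erythroid-like cells. Jag1 was spread over the classes, at 24.4 CPM in endothelial, 21.9 in cardiomyocyte-like, 19.7 in epicardial-like and 11.003 in mesenchymal-like cells. Dll4 was therefore almost restricted to a class that Jag1 shared with 3 others. Rbpj, which every cell needs to read the signal, was nearly even, from 20.8 CPM in cardiomyocyte-like to 36.7 in epicardial-like cells, with 3.46 in erythroid-like cells.

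Among the targets, Hes1 was at 263 CPM in endothelial, 239.9 in mesenchymal-like, 159 in epicardial-like and 47.9 in cardiomyocyte-like cells. Hey1 was at 66.1 CPM in epicardial-like and 54.3 in endothelial cells against 6.99 in cardiomyocyte-like cells. Hey2 had the opposite balance, at 53.6 CPM in cardiomyocyte-like and 59.2 in endothelial cells against 20.7 in epicardial-like cells, and 60.5% of its 2027 UMIs were in cardiomyocyte-like cells. The 2 related repressors thus shared the endothelial class and parted in muscle and epicardium. Nrarp (46.4 CPM) and Heyl (17.5) were highest in the endothelial class, followed by mesenchymal-like cells at 13.3 and 6.05.

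**Figure D1:**
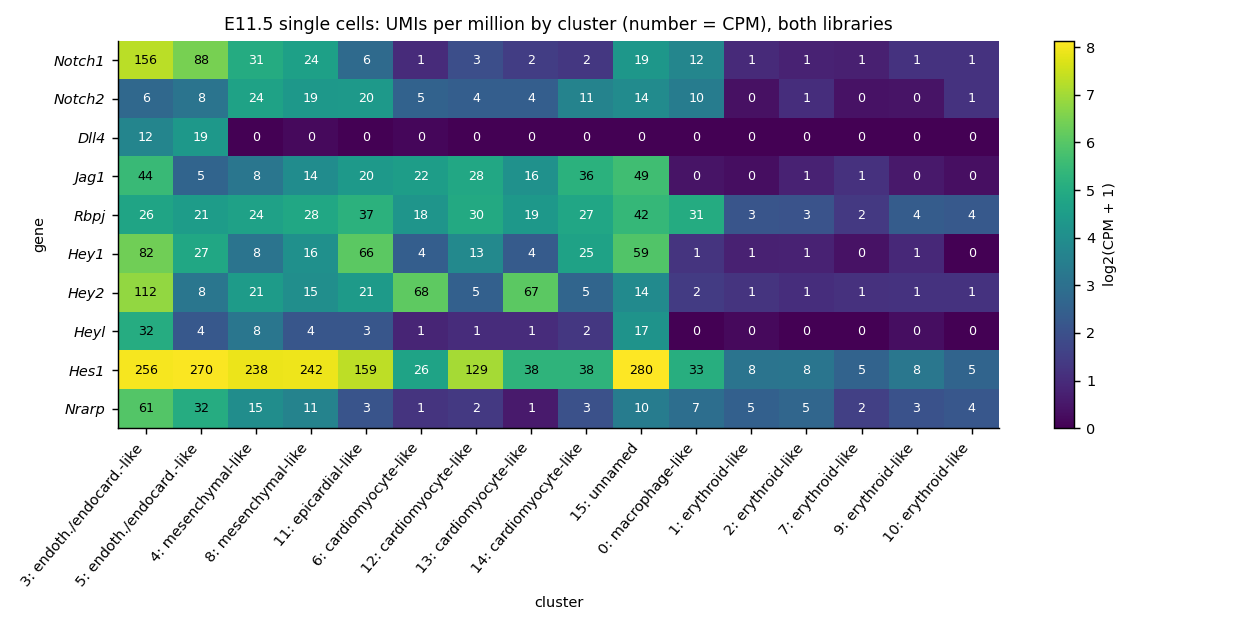
Level of each Notch gene in the clusters of the 5 large classes and in clusters 0 and 15 at E11.5 (numbers are CPM, both libraries summed; colour is log2(CPM + 1)). Dll4 shows in clusters 3 and 5, which hold 90 of its 92 UMIs, while Hey2 shows in cluster 3 and in the muscle clusters 6 and 13.

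The endothelial class was made of 2 clusters that carried different members. Cluster 3 (271 cells) was led by Stmn2, Krt79, Pi16 and Wnt4, and cluster 5 (194 cells) by Emcn, Gja4, Gpr182 and Tmem100. Of 5 arterial endothelial markers, 4 led in cluster 3 and 2 in cluster 5. Hey2 was at 112 CPM in cluster 3 and 8.15 in cluster 5, Jag1 at 44.5 and 5.09, and Heyl at 31.8 and 3.73. Hey1 (82.2 and 27.5), Notch1 (156 and 87.6) and Nrarp (61.4 and 31.9) were also higher in cluster 3. Dll4 went the other way, with 12.001 CPM in cluster 3 and 19.0 in cluster 5, and Hes1 was near even at 256 and 269.8. Cluster 3 thus held the Jag1, Hey2 and Heyl transcripts of this class, whereas Dll4 and Hes1 were in both. These levels come from cells of 2 libraries and have no test.

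Muscle clusters differed from each other in Hey2, Hes1 and Hey1. Hey2 was at 68.0 CPM in cluster 6, led by the trabecular genes Cited1, Nppa and Gja5, and at 67.4 in cluster 13, led by genes such as Myl2. It was at 4.69 CPM in cluster 12, where all 5 detected outflow markers led, and at 5.30 in cluster 14, led by Shox2. In cluster 14 all 7 atrial markers led, and 3 of 5 detected sinus venosus markers. Hes1 was at 129 CPM in cluster 12 against 25.6 in cluster 6 and 37.8 in cluster 13. Hey1 was at 24.98 CPM in cluster 14 and 13.3 in cluster 12, against 4.43 in cluster 6 and 4.10 in cluster 13. Cluster 15, which stayed unnamed and was led by genes such as Rgs5, Eln and Isl1, held Jag1 at 49.1 CPM, Hey1 at 59.4, Hes1 at 279.7 and Rbpj at 41.7.

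Shares of cells with a UMI were taken after each cell was thinned to 5000 UMIs. Notch1 was seen in 39.1% of 432 endothelial cells (exact 95% interval 34.5% to 43.9%) and in 0.585% of 2050 erythroid-like cells, which should lack it. Before thinning these shares were 70.5% and 1.46%, and median depths were 11689 and 11352 UMIs. Hes1 was seen in 60.2% of endothelial cells, 55.2% of mesenchymal-like and 3.42% of erythroid-like cells. Both genes were thus far above the erythroid share. Dll4 was seen in 7.64% of endothelial cells and in 0 of 2050 erythroid-like cells. That allows a share of up to 0.146% (3 counts of the total) of cells with a UMI at this depth. It sets no limit on the share of cells that hold the transcript. Hey2 was seen in 24.8% of endothelial and 21.4% of cardiomyocyte-like cells, and Hey1 in 25.6% of epicardial-like cells.

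In cluster 3, Jag1 was seen in 24.1% of the cells with a Notch1 UMI and in 13.7% of the others, out of 247 cells. In cluster 5, with 185 cells, it was seen in 1.89% and 0.758%. Receptor and ligand were therefore seen together in some cells of cluster 3, 28 of the 247. That number was not set against what the 2 shares alone would give. Among cluster 3 cells with a Notch1 UMI and the others, Dll4 was seen in 6.90% and 6.11% and Hes1 in 59.5% and 52.7%. Nrarp went the other way, at 14.7% and 19.9%. In cluster 5 Dll4 was at 11.3% and 8.33%, Hes1 at 60.4% and 68.2% and Nrarp at 3.77% and 10.6%. These shares are of cells pooled from 2 libraries and have no test.

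The genes most like each member were taken as those with the highest Pearson r of log2(CPM + 1) over the 19 clusters, which share libraries and depth. For Dll4 these were Cdh5 (r 0.963), Emcn (0.956) and Gpr182 (0.952), all genes of endothelium. For Notch1 they were Ramp2 (0.949), Mmp2 (0.931) and Ltbp4 (0.930), and for Nrarp Ramp2 (0.903), Eng (0.902) and Mmp2 (0.851). Over the 16 clusters with at least 50 cells the order changed, to Eng (0.974), Icam2 (0.962) and Gm16104 (0.960) for Notch1 and to Eng (0.917), Klf3 (0.901) and Plvap (0.895) for Nrarp, whereas Cdh5 (0.977) stayed first for Dll4. Jag1 was most like Zfp827 (0.957), Unc5b (0.944) and Pkia (0.942), and Hes1 like Mdfi (0.958), Fscn1 (0.952) and Atg12 (0.951). Hey1 was most like Gstm2 (0.934), Heyl like Fbn1 (0.913) and Hey2 like Btg3 (0.850), the lowest top value among the 10. Notch2 was most like Fam118a (0.953) and Rbpj like Ube2d2a (0.975). Over the 16 clusters Fbn1 (0.910) stayed first for Heyl, and the first gene changed for the others. It became Gnai1 for Jag1 (0.974), Gas2l1 for Hes1 (0.983) and Lpar4 for Hey1 (0.963). For Hey2 it became Gja1 (0.909), for Notch2 Slc50a1 (0.970) and for Rbpj Tmem126b (0.987).

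Between the E11.5 heart and the E16.5 ventricle, Notch1, Dll4, Hey2, Heyl and Nrarp rose in F/+ libraries, and Jag1 and Hey1 fell. In the F/F libraries, which are separate samples, Notch1, Notch2, Hey2, Heyl and Nrarp rose and Jag1 and Hey1 fell. Stage and the part of the heart sampled cannot be told apart, and in bulk tissue a change in the number of cells of a type cannot be told from a change in RNA per cell. A gene was called where limma's Benjamini-Hochberg adjusted p over all genes was under 0.05. In F/+ this held for 7 of 10 members and for 48.7% of the 11405 genes tested (17.7% higher and 31.0% lower). In F/F it held for 7 members and for 47.0% of 11396 genes (17.3% higher and 29.7% lower). The stages did not overlap for 7 members and 60.0% of genes in F/+, and for 8 members and 58.5% of genes in F/F. Changes are given as differences of log2(FPKM + 1), which understates the change of low genes.

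**Figure D2:**
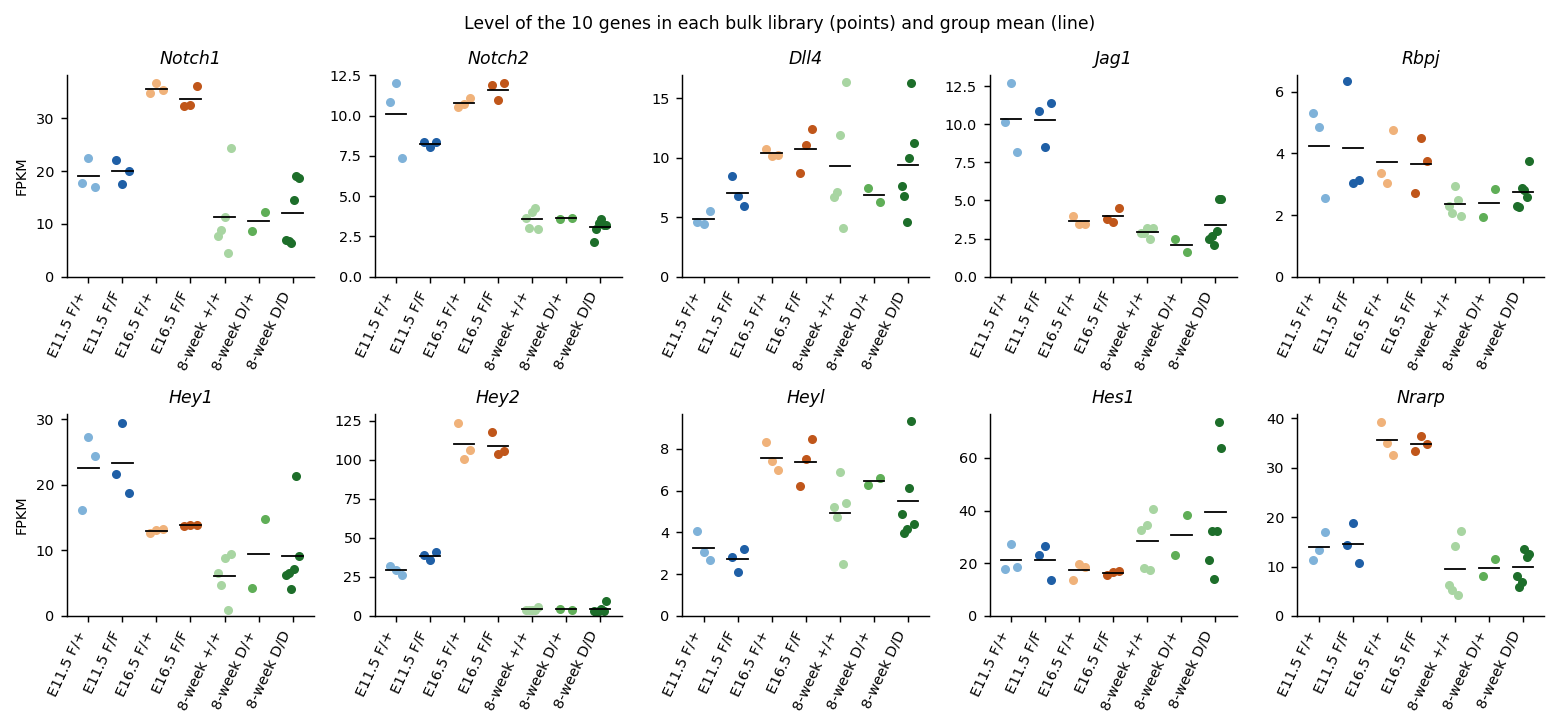
FPKM of each Notch gene in each bulk library (points; linear axes from 0, one scale per gene) with the group mean as a line, by stage and genotype. Hey2 lies between 26.43 and 41.13 at E11.5, between 100.47 and 123.27 at E16.5 and between 2.29 and 9.80 at 8 weeks.

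The receptor Notch1 was at 17.68, 22.55 and 17.01 FPKM in E11.5 F/+ hearts and at 34.78, 36.71 and 35.30 in E16.5 F/+ ventricles. In F/F it was at 22.14, 17.64 and 20.11, then 32.31, 32.61 and 36.17. Every ventricle was above every E11.5 heart of its genotype, and the rise was 0.88 (SE 0.15, n = 3 and 3, limma adjusted p = 0.0015) in F/+ and 0.73 (SE 0.14, adjusted p = 0.0031) in F/F. Both calls were lost in 1 of 13 alternative fits, that of all 25 libraries (limma adjusted p = 0.085 and 0.152). Notch2 stayed between 7.38 and 12.05 FPKM in all 12 embryonic libraries. Its difference was 0.11 (SE 0.19, adjusted p = 0.659) in F/+ and 0.45 (SE 0.15, adjusted p = 0.036) in F/F; the call in F/F was lost in 8 of 13 alternative fits, among them each fit without 1 library.

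The ligands moved in opposite directions. Dll4 was at 4.56, 4.39 and 5.49 FPKM in E11.5 F/+ hearts and at 10.77, 10.11 and 10.25 in E16.5 F/+ ventricles, with no overlap. Its rise was 0.97 (SE 0.16, adjusted p = 0.0015). In F/F it was at 8.46, 6.81 and 5.94, then 8.76, 11.05 and 12.39, and the difference of 0.54 (SE 0.20, adjusted p = 0.052) did not pass. It passed in 3 of 13 alternative fits, among them that with median-ratio scaling (0.72, adjusted p = 0.014). Jag1 was at 10.15, 12.72 and 8.16 FPKM in E11.5 F/+ hearts and at 4, 3.45 and 3.44 in the ventricles. In F/F it went from 10.91, 8.52 and 11.43 to 3.78, 3.60 and 4.52. All ventricles were below all E11.5 hearts, and the fall was -1.28 (SE 0.20, adjusted p = 0.0010) and -1.18 (SE 0.19, adjusted p = 0.0015).

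Of the targets, Hey2 changed most. It was at 31.84, 29.21 and 26.43 FPKM in E11.5 F/+ hearts and at 123.27, 100.47 and 105.97 in the ventricles. In F/F it went from 38.85, 35.49 and 41.13 to 117.83, 103.66 and 105.50. The rise was 1.88 (SE 0.13, adjusted p = 2.9e-05) and 1.48 (SE 0.12, adjusted p = 5.8e-05), and at E16.5 Hey2 was the highest of the 10 members in every library. Nrarp rose from 13.9 ± 2.91 to 35.6 ± 3.34 FPKM (SD, n = 3) in F/+, by 1.31 (SE 0.17), and from 14.6 ± 4.07 to 34.8 ± 1.48 in F/F, by 1.23 (SE 0.20). Heyl rose by 1.02 (SE 0.19) from 3.26 ± 0.70 FPKM in F/+ and by 1.18 (SE 0.21) from 2.71 ± 0.56 in F/F. For both genes and in both genotypes the stages did not overlap.

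Hey1 fell while its relatives rose. It was at 16.18, 27.32 and 24.47 FPKM in E11.5 F/+ hearts and at 12.64, 13.16 and 13.22 in the ventricles, and in F/F it went from 21.71, 29.44 and 18.78 to 13.74, 13.81 and 13.96. The fall was -0.72 (SE 0.20, adjusted p = 0.016) and -0.69 (SE 0.18, adjusted p = 0.014), and the call was lost in 5 of 13 alternative fits in F/+ and 3 of 13 in F/F. Hes1 (difference -0.27, SE 0.21, adjusted p = 0.314 in F/+, and -0.30, SE 0.23 in F/F) overlapped between the stages. In F/F it ran from -0.56 to 0.0011 over 13 alternative fits and was called in 1 of them. Rbpj (-0.12, SE 0.27, and -0.11, SE 0.29) overlapped too, and its difference changed sign under median-ratio scaling (0.04 and 0.05) and upper-quartile scaling.

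Over all genes the median difference was -0.18 in F/+ and -0.17 in F/F, against a members' median of 0.49 in each. Median-ratio scaling brought the median of all genes to 0.00 and 0.01 and the split of called genes in F/+ from 2016 higher and 3536 lower to 2944 and 2858, and in F/F from 1977 and 3382 to 2682 and 2671. On that scale Hey2 differed by 2.08 and 1.68, Nrarp by 1.51 and 1.42, Notch1 by 1.07 and 0.93, and Jag1 by -1.10 and -1.003, so these directions did not depend on it. Hey1 differed by -0.53 (adjusted p = 0.064) in F/+ and -0.50 (adjusted p = 0.043) in F/F.

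**Figure D3:**
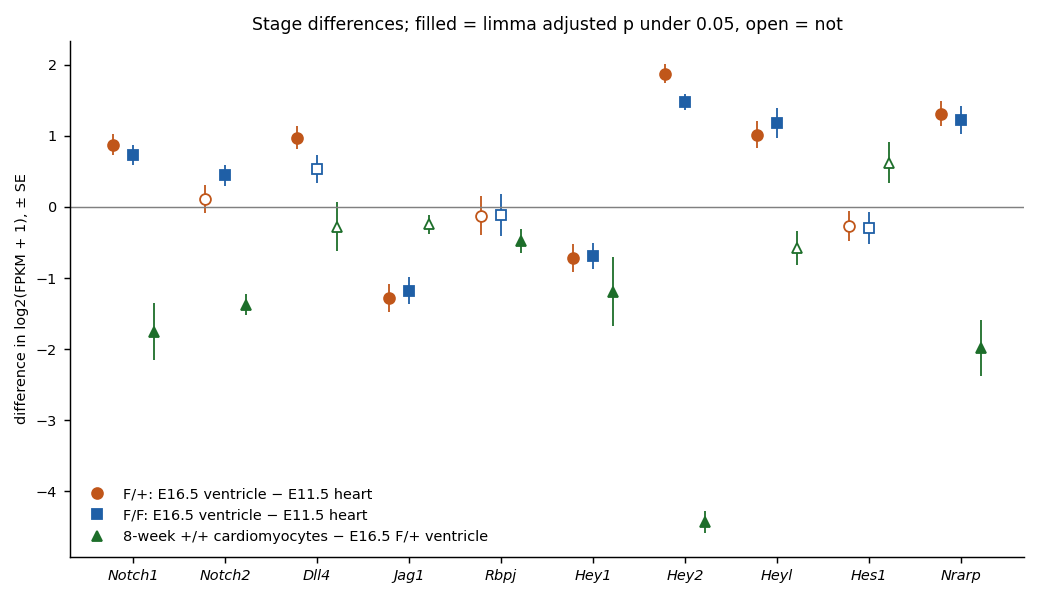
Difference in log2(FPKM + 1) for each Notch gene from the E11.5 heart to the E16.5 ventricle in F/+ and in F/F, and between 8-week +/+ cardiomyocytes and E16.5 F/+ ventricle; bars are standard errors of the limma fit. Hey2 is the largest rise (1.88 and 1.48) and the largest fall (-4.44).

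Markers of cell types also moved between the stages. The summed FPKM of 12 endothelial and endocardial markers, none of them at 0, was 343 to 379 in E11.5 F/+ hearts and 320.5 to 367 in the ventricles. Single markers moved in both directions within that sum, such as Cldn5 (group mean 9.03 and 48.0 FPKM) and Plvap (82.4 and 31.1). The sum of 9 epicardial markers went from 249.2 to 402 down to 69.2 to 84.1, and that of 7 atrial markers from 111 to 114 down to 28.7 to 30.9. Erythroid genes took 39196 to 136083 FPKM in E11.5 F/+ hearts and at most 299.7 in the F/+ ventricles. The sum of mesenchymal markers went from 278 to 397 up to 547 to 691, which describes the sum and not each marker. The part of these shifts in the members' changes was not tested.

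In cardiomyocytes of 8-week-old mice, Hey2 was far below its E16.5 level, and Notch1, Notch2, Nrarp, Hey1 and Rbpj were lower too. The 5 +/+ libraries were set against the E16.5 F/+ ventricles, the same libraries that enter the F/+ stage comparison. Age, cell preparation and the F allele change together here and cannot be told apart. Of the 10 members 6 fell and none rose, and 69.8% of 10904 genes were called (24.9% higher and 44.9% lower); 8 members and 66.1% of genes did not overlap. Hey2 was at 3.68, 3.68, 3.78, 3.90 and 5.74 FPKM, all far below the ventricles, a fall of -4.44 (SE 0.16, n = 5 and 3, limma adjusted p = 3.6e-08). Nrarp (6.31, 5.32, 14.17, 4.26 and 17.10 FPKM) fell by 1.98 (SE 0.39), Notch1 (7.75, 8.85, 11.31, 4.56 and 24.39) by 1.75 (SE 0.40) and Notch2 (2.96 to 4.25) by 1.37 (SE 0.15). None of these libraries reached the E16.5 range of its gene.

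Markers of other cell types were lower in the 8-week cardiomyocytes too. The 10 mesenchymal markers summed to 30.8 to 41.8 FPKM in +/+ against 547 to 691 in the E16.5 F/+ ventricles, the 9 epicardial markers to 3.53 to 14.7 against 69.2 to 84.1, and the 9 macrophage markers to 6.30 to 11.53 against 43.3 to 83.3. The 12 endothelial markers summed to 128 to 401 FPKM against 320.5 to 367, so these sums overlapped, and 6 of the 12 were called lower and 2 higher. At most 2 epicardial, 3 macrophage and 1 mesenchymal marker were at 0 in a +/+ library. The 11 cardiomyocyte markers summed to 31410 to 35065 FPKM against 17671 to 19750. The part of these shifts in the members' falls was not tested.

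Hey1 (0.96 to 9.44 FPKM, difference -1.19, SE 0.48, adjusted p = 0.049) and Rbpj (1.98 to 2.94, -0.48, SE 0.17, adjusted p = 0.027) passed the threshold narrowly, and the calls were lost in 11 and 6 of 16 alternative fits. Dll4 (4.12 to 16.39 FPKM; -0.28, SE 0.35), Jag1 (2.48 to 3.21; -0.24, SE 0.13) and Heyl (2.50 to 6.89; -0.57, SE 0.24, adjusted p = 0.056) did not pass. Hes1 was the only member with a positive difference in this fit (17.27 to 40.51 FPKM, difference 0.63, SE 0.29, adjusted p = 0.080). Of the 16 alternative fits, Hes1 was called in 5 and Heyl in 3. The median of all genes was -0.34 here and 0.02 with median-ratio scaling, where Hes1 was 1.01 (adjusted p = 0.012), and Dll4 (0.09) and Jag1 (0.07) changed sign. With that scaling 3663 genes were called higher and 3516 lower, against 2716 and 4897 without it. Without the library labelled +/+ replicate 5, 7 members were called, with Heyl added (-0.61, adjusted p = 0.042), and Notch1 differed by -2.06.

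None of the 10 members was called between F/F and F/+ at E11.5 or at E16.5, nor between D/D and control cardiomyocytes. At E11.5 limma called 1 of 11491 genes (0.00870%), Mir6236, a gene named after its values were seen, and 502 (4.37%) had an unadjusted p under 0.05, Hey2 among them. At E16.5 it called the same gene, 1 of 10699 (0.00935%), in the opposite direction (higher in F/F at E11.5 and lower in F/F at E16.5), with 281 (2.63%) and no member at an unadjusted p under 0.05. At 8 weeks it called 0 of 10249 (0%), with 175 (1.71%) and no member at an unadjusted p under 0.05. In data simulated on these libraries, 100 genes were altered by a log2 difference of 1 and 100 by a difference of 2. A difference of 1 was called for 31% of its altered genes at E11.5, 83% at E16.5 and 74% at 8 weeks. For a difference of 2 the shares were 81%, 99% and 98%. A change of 1 or less at E11.5 could thus often be missed. The adjusted p of a gene depends on how many others change, and between genotypes at most 1 gene was called. A member that changed alone could therefore be called less often than these shares, at E16.5 and 8 weeks too. That case was not simulated.

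At E11.5, Hey2 and Dll4 were the members whose genotypes did not overlap, as were 9.23% of all genes. Hey2 was at 31.84, 29.21 and 26.43 FPKM in F/+ and at 38.85, 35.49 and 41.13 in F/F. The difference was 0.39 (SE 0.17, unadjusted p = 0.040, limma adjusted p = 0.999). Dll4 was at 4.56, 4.39 and 5.49 FPKM in F/+ and 8.46, 6.81 and 5.94 in F/F, a difference of 0.47 (SE 0.25, adjusted p = 0.999). Every F/F heart was above every F/+ heart for both genes, and neither passed the test over all genes. The other 8 differences lay between -0.24 (Notch2, SE 0.24) and 0.07 (Notch1, SE 0.20).

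Marker sums differed between the genotypes at E11.5 as well. The 12 endothelial markers summed to 343 to 379 FPKM in F/+ and 399 to 436 in F/F. The 11 cardiomyocyte markers summed to 12310 to 14409 FPKM in F/+ and 14818 to 17244 in F/F. The groups did not overlap in either sum, and their part in the values of Hey2 and Dll4 was not tested.

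At E16.5 the 10 differences lay between -0.08 and 0.10, and Hey1 was the member whose genotypes did not overlap (12.64 to 13.22 FPKM in F/+, 13.74 to 13.96 in F/F; 0.08, SE 0.09), as were 6.78% of genes. Hey2 was at 109.9 ± 11.9 FPKM in F/+ and 109 ± 7.71 in F/F (SD, n = 3). The excess of Hey2 in F/F at E11.5 was thus not seen at E16.5. The test of that difference between stages, an interaction term, gave -0.40 (SE 0.17, unadjusted p = 0.038, limma adjusted p = 0.999) for Hey2 and -0.43 (SE 0.25) for Dll4. Of 11423 genes 1 was called for the interaction (0.00875%) and 4.32% had an unadjusted p under 0.05; of the members Hey2 alone had.

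At 8 weeks all 10 members overlapped between D/D and the 7 controls, as did all but 0.0293% of genes. Differences ran from -0.18 for Notch2 (SE 0.12) to 0.38 for Hey1 (SE 0.42), with a median of 0.13 against -0.01 over all genes. Hes1 was at 39.5 ± 23.9 FPKM in 6 D/D libraries, 30.8 ± 10.7 in 2 D/+ and 28.5 ± 10.4 in 5 +/+ libraries. Hey1 ranged from 4.12 to 21.40 FPKM in D/D (median 6.81) and from 0.96 to 9.44 in +/+ (median 6.52). For both genes the spread within a genotype was wider than the difference between genotypes. Without the 2 libraries that stood apart the difference was 0.45 (SE 0.48) for Hey1, 0.18 (SE 0.35) for Hes1 and -0.24 (SE 0.12) for Hey2. The 13 libraries fell into 3 sets of 5, 6 and 2 by clustering, each with controls and D/D. Within them Hey1 differed by 0.27, 0.54 and -0.04, Hes1 by 0.12, 0.18 and 0.64, and Notch1 by -0.26, 0.45 and -0.36.

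The 8-week libraries varied in how much endothelial RNA they held, and 6 of the 10 members varied with it. The endothelial marker sum was 128 to 401 FPKM in +/+, 234 and 283 in D/+ and 166 to 569 in D/D, and all 12 markers were above 0 in each library, although these were labelled as cardiomyocytes. In a limma fit of each gene on the log2 of that sum over 13 libraries, 7.64% of 10249 genes had a positive slope past the threshold. The members among them were Hey1 (slope 1.43), Hes1 (1.11), Notch1 (1.10), Dll4 (0.96), Nrarp (0.83) and Heyl (0.58), with adjusted p between 0.00052 and 0.011. Jag1 (0.41, adjusted p = 0.110), Hey2 (0.22), Rbpj (0.04) and Notch2 (-0.07) were not. The same 6 members were called with a term for the 3 sets, when 7.62% of genes were.

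The 10 members were also correlated with the sum, a relation each, over the 13 libraries. Pearson's r was 0.925 for Dll4 (permutation p = 4e-05), 0.901 for Notch1 (p = 2e-05, the smallest that 100000 permutations can give) and 0.901 for Hey1 (permutation p = 0.0001). Spearman's rho was 0.824, 0.918 and 0.907 for the same genes, with permutation p of 0.00098, 2e-05 and 6e-05. Libraries rich in endothelial markers were thus mostly rich in these transcripts, with no value taken within a genotype. For Hes1 r was 0.866 and rho 0.923 (permutation p = 0.00018 and 2e-05), for Nrarp 0.794 and 0.868 (0.0006 and 0.00028), and for Heyl 0.818 and 0.742 (0.00122 and 0.00528). Without the 2 libraries farthest from the median sum, D/D replicate 5 (569 FPKM) and +/+ replicate 4 (128 FPKM), r was 0.93 for Notch1, 0.903 for Dll4, 0.854 for Nrarp, 0.808 for Hes1, 0.731 for Hey1 and 0.451 for Heyl, so that of Heyl rested on those libraries. Jag1 had r 0.643 and rho 0.659 (permutation p = 0.0202 and 0.0174) and r 0.489 without them.

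Within the set of 6 libraries r was 0.964 for Heyl, 0.959 for Notch1, 0.958 for Hes1, 0.931 for Hey1, 0.921 for Dll4 and 0.803 for Nrarp, with exact permutation p between 0.00278 and 0.0417. That set holds both libraries farthest from the median sum, D/D replicate 5 and +/+ replicate 4. No value was taken in the set without them, so these values do not add to those over the 13 libraries. No value was taken in the sets of 5 and 2, and in the set of 5 the sum ranged only from 218 to 234 FPKM. Over the 13 libraries r passed 0.8 for 4.49% of genes and for 5 of the 10 members, and the median r of all genes was 0.03. Over those 13 libraries Hey2, Notch2 and Rbpj, with r of 0.283, -0.198 and 0.101, did not follow the endothelial sum. Without the 2 farthest libraries r was 0.64 for Hey2, 0.113 for Notch2 and 0.13 for Rbpj. The value of Hey2 thus depended on those 2 libraries, and in the set of 6 it was -0.163.

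**Figure D4:**
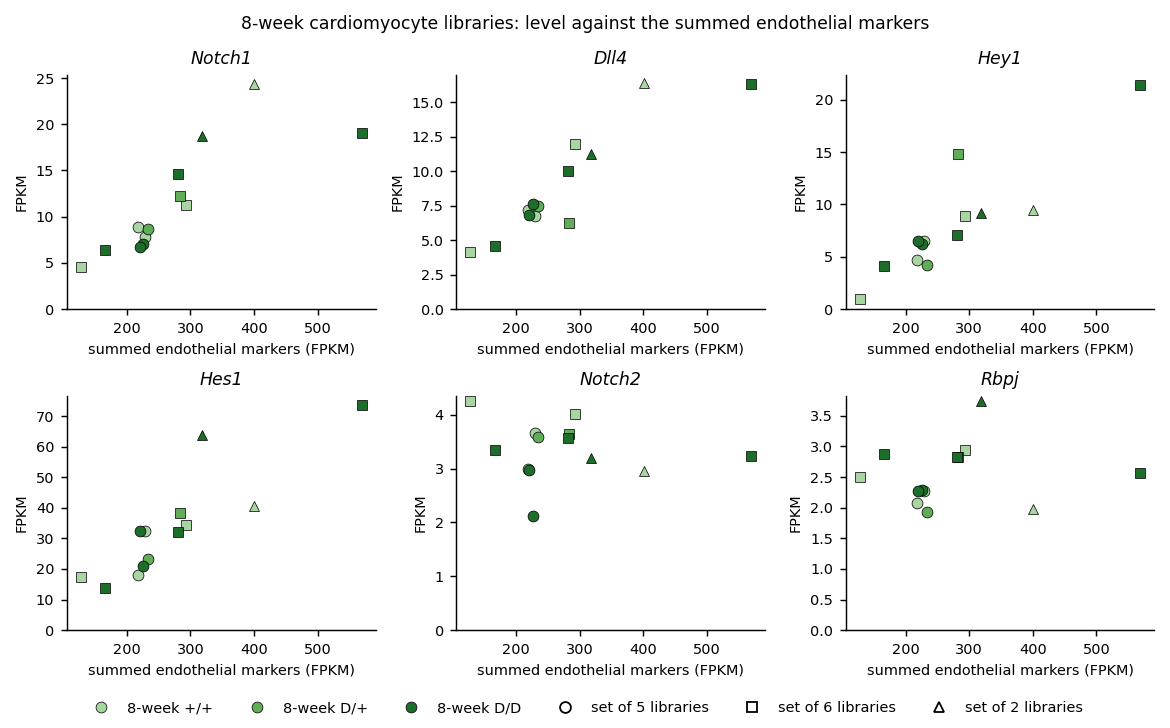
FPKM of Notch genes against the summed FPKM of 12 endothelial markers in the 13 8-week libraries, coloured by genotype, with symbols for the 3 sets of libraries. Notch1, Dll4 and Hey1 rise with the sum (r 0.901, 0.925 and 0.901), and Notch2 does not (r -0.198).

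In single cells at E11.5, Hes1 was lower in the library labelled F/F than in the one labelled +/+ in several cell types, and the other members were mostly near equal. Each genotype had 1 library, so genotype was not tested here, and the intervals cover counting error only. In endothelial cells Hes1 had 868 UMIs (373 CPM, exact 95% interval 348 to 398) in the +/+ library and 653 (189 CPM, 175 to 204) in the F/F library. The log2 ratio was -0.98 (exact 95% interval -1.13 to -0.83). In epicardial-like cells it was at 234 and 116 CPM (-1.01, -1.20 to -0.83), and in mesenchymal-like cells at 311 and 179 CPM (-0.80, -0.90 to -0.70). Cardiomyocyte-like cells held 57.4 and 41.5 CPM (-0.47, -0.64 to -0.29). There 270 of 582 cells were of cluster 6 and 171 of cluster 13 in the +/+ library, against 349 and 354 of 932 in the F/F library. In erythroid-like cells the interval spanned 0 (-0.31, -0.69 to 0.07).

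The share of cells with a Hes1 UMI, after thinning, was lower as well. It was 70.9% (exact 95% interval 63.5% to 77.5%) of 175 endothelial cells in the +/+ library and 52.9% (46.6% to 59.2%) of 257 in the F/F library, after 13 and 20 shallower cells were left out. Before thinning it was 81.4% and 70.8%. In epicardial-like cells it was 57.1% and 41.0%, and in mesenchymal-like cells 62.2% and 49.1%. In erythroid-like cells it was 3.43% and 3.41%, close to each other in the class used as background. The log2 ratio of CPM there was -0.31, with an interval that spanned 0. The median log2 ratio over genes of that class was 0.12.

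A ratio past 1.5-fold in either direction was seen for 4.40% of 5729 genes with at least 100 UMIs in endothelial cells, 4.68% of 5851 in epicardial-like, 3.76% of 8317 in mesenchymal-like, 2.69% of 9380 in cardiomyocyte-like and 5.97% of 5894 in erythroid-like cells. Hes1 was the only member past it in the first 3 of these classes, of 8, 6 and 8 members with enough UMIs, and no member was past it in cardiomyocyte-like cells, of 6, or in erythroid-like cells, of 3. Of 5042 genes with enough UMIs in endothelial, epicardial-like and mesenchymal-like cells, 37 (0.734%) were lower past 1.5-fold in all 3, Hes1 among them, and 6 were higher. Of those 37 genes, 31 had enough UMIs in erythroid-like cells and 18 were lower past 1.5-fold there too, which Hes1 was not. The libraries also differed in RNA of other cells: cardiomyocyte markers summed to 395 CPM in erythroid-like cells of the +/+ library and 856 in those of the F/F library. The part of such differences in the Hes1 ratio was not tested.

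Over the endothelial class as a whole the receptors and ligands had intervals that spanned 0, except Notch2. Notch1 was at 129 and 116 CPM (log2 ratio -0.16, exact 95% interval -0.38 to 0.06), Dll4 at 16.7 and 14.8 (-0.18, -0.81 to 0.46) and Jag1 at 25.3 and 23.8 (-0.09, -0.59 to 0.42). Notch2 had 8 and 31 UMIs (1.39, 0.23 to 2.72). Among other targets there, Nrarp was 0.09 (-0.27 to 0.46), Hey1 0.17 (-0.17 to 0.51), Hey2 -0.11 (-0.43 to 0.21) and Heyl -0.19 (-0.79 to 0.41). Rbpj was -0.46 (-0.97 to 0.04). For Dll4, Jag1, Heyl and Rbpj these counts leave room for changes of more than 1.5-fold.

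Outside endothelium, Hey1 in epicardial-like cells was at 53.7 CPM in the +/+ library and 73.2 in the F/F library (0.45, 0.14 to 0.76). In mesenchymal-like cells Rbpj was at 30.8 and 21.1 CPM (-0.55, -0.86 to -0.23), and Heyl had 54 and 29 UMIs (-1.12, -1.82 to -0.44). Jag1 (57 and 94 UMIs, 0.50, 0.0085 to 0.999) and Notch2 (122 and 181 UMIs, 0.35, 0.0066 to 0.69) were higher in the F/F library there. Hey2 in cardiomyocyte-like cells was at 56.8 and 51.4 CPM (-0.14, -0.31 to 0.02). Hey2 and Dll4 were thus not higher in the F/F library in the classes that held most of their UMIs, while bulk E11.5 F/F hearts were above F/+ hearts for both. The single-cell directions here and for Hes1 rest on labels that the Hand2os1 UMIs go against, and would be the opposite with the labels exchanged. For Hes1, bulk hearts gave 21.2 ± 5.35 FPKM in F/+ and 21.2 ± 6.62 in F/F (SD, n = 3; difference -0.03, SE 0.27), whereas over all single cells it was 119 and 68.5 CPM. Controls were F/+ in the bulk libraries and +/+ in the single cells.

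**Figure D5:**
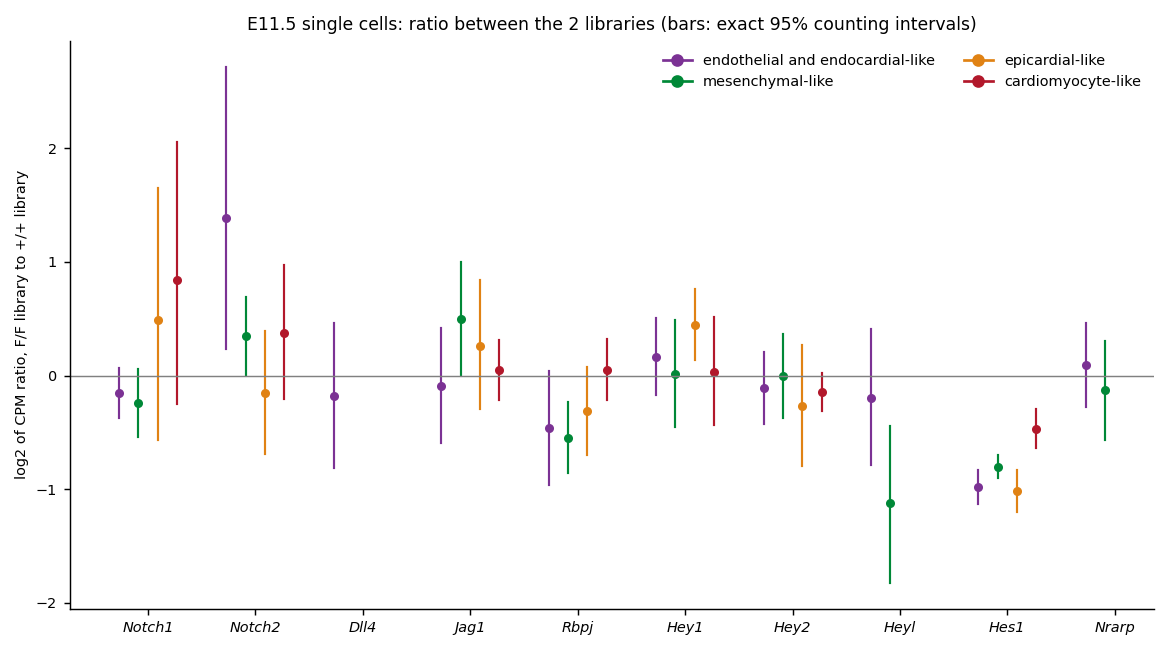
Log2 ratio of CPM in the library labelled F/F to that labelled +/+ for each Notch gene in the large cell classes at E11.5, with exact 95% intervals that cover counting error only. Hes1 lies near -1 in endothelial and epicardial-like cells, at -0.98 and -1.01.

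Other genes of the pathway, 64 in 7 lists, were read beside the members. None of 53 tested was called between genotypes at E11.5 or of 53 at E16.5, nor of 49 at 8 weeks. Between E11.5 and E16.5 in F/+, 10 of 55 tested rose and 14 fell; in F/F 11 of 54 rose and 11 fell. Over all genes 17.7% were called higher and 31.0% lower in F/+, and 17.3% and 29.7% in F/F. A difference between the pathway genes and all genes in these shares was not tested. Of the other receptors and ligands, 3 of 4 tested rose and none fell: Jag2 by 1.63 and 1.72, Notch4 by 1.38 and 1.26, and Notch3 by 0.78 and 1.28, in F/+ and F/F.

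Among the 9 genes that modify ligand or receptor, 3 rose and 1 fell in F/+, and 4 of 8 tested rose in F/F. Mfng, a glycosyltransferase that alters which ligand a receptor answers, rose by 1.47 and 1.51. Neurl1b and Mib2, ubiquitin ligases that act on ligands, rose by 1.49 and 1.28 and by 0.79 and 0.98, and Poglut1 fell by 0.94 in F/+. In the cleavage list, Ncstn, a part of gamma-secretase, fell by 2.06 in F/+ and by 2.36 in F/F. In that list Aph1a rose in F/+ (0.63) and Psenen in F/F (2.01). In the nuclear list of 14, 5 fell in each genotype, led by Snw1 (fell by 1.31 and by 0.96), Hdac1 (by 1.04 and by 0.98) and Tle1 (by 1.09 and by 0.96). Kat2b rose in F/+ (0.83), and Spen rose in F/F (0.51).

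Of 7 cardiac genes known to act downstream of endocardial Notch, 4 fell and none rose in F/+, and 3 fell and 1 rose in F/F. Bmp10, a growth factor of the trabeculae, fell by 1.49 in F/+ and by 1.68 in F/F. Nrg1, the endocardial ligand of ErbB receptors, fell by 1.203 and by 1.04, and Bmp2 by 1.48 and by 1.52. Tbx2 fell by 1.27 in F/+, and Snai2 rose by 1.17 in F/F. Trabecular marker sums were 1000.4 to 1389 FPKM in E11.5 F/+ hearts and 439.6 to 636 in the ventricles. Their part in the fall of Bmp10, itself 1 of those markers, was not tested. Of 10 inhibitors tested, Itch fell in both genotypes (by 1.495 and by 1.37), and Egfl7 rose (0.66) and Numbl fell (by 0.45) in F/+. Of 4 other Hes genes, Bhlhe40 rose in F/+ (0.54) and none was called in F/F.

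From the E16.5 F/+ ventricle to 8-week +/+ cardiomyocytes, 10 of 51 tested pathway genes rose and 26 fell, where 24.9% of all genes were called higher and 44.9% lower. Dlk1, a non-canonical Notch ligand of immature cells, fell by 5.95, the largest change in the lists. The modifiers Neurl1b (fell by 2.55), Mfng (by 1.504) and Pofut1 (by 1.24) were lower, with 6 of 8 falling and none rising. Cleavage genes split, with Psenen (2.23), Ncstn (1.64) and Aph1a (0.84) higher, and the sheddases Adam10 and Adam17 lower, by 1.62 and by 0.98. Of the downstream cardiac genes 4 of 5 fell, namely Bmp10 (by 2.47), Snai1 (by 2.05), Snai2 (by 1.99) and Efnb2 (by 1.53). Notch3 and Notch4 fell by 0.81 and by 0.80. Of 9 inhibitors 2 rose and 5 fell, among them the turnover gene Fbxw7 (rose, 1.48) and Dtx2 and Numbl (fell by 1.80 and by 1.61), and of 14 nuclear genes 2 rose and 6 fell, Hdac1 most (by 1.93). Of 4 other Hes genes Helt (1.40), Bhlhe40 (1.26) and Bhlhe41 (0.79) rose and Hes6 fell by 1.26.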

How the data were processed

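Values were used as the authors deposited them. The deposited bulk table holds FPKM per gene; no header names the unit, which was inferred from values that are not whole and sum to between 334194 and 586795 per library. The deposited single-cell values are whole UMI counts, with genes in rows and barcodes in columns. Per the labels, bulk libraries were stranded poly(A) libraries and single cells were sorted alive and pooled. Per the submitters' processing notes, TopHat2 2.0.11 and Cell Ranger were among the tools, and mm9 and mm10 among the builds, with no role given.

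Identical lines were merged (769 lines of 270 symbols), and 1 gene was dropped for a blank cell. Values were taken as log2(FPKM + 1), a gene entered a fit where its mean over the fit's libraries reached 1 FPKM, and limma 3.58.1 with a trend was fitted in R 4.3.3. The limma test was tested on simulated data with 200 changed genes.

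A minimum of 500 genes left 2555 and 3464 barcodes (18 barcode sequences occur in both libraries), and 52 and 96 were removed by doublet score, since the automatic threshold marked only 6 (0.0997%). Scanpy 1.11.5 was run with 2000 variable genes, 30 components, 15 neighbours and Leiden resolution 1.0, leaving the pathway's genes out of the variable genes. Clusters were named where at least 3 markers led and 2 stayed unnamed. The labels aimed at 5000 cells per library, and 2503 and 3368 were used (median of 13369 and 13403 UMIs per deposited barcode). Intervals are exact 95% intervals for counting error only.

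The members, the marker and pathway lists and the tests were chosen with earlier results of these data known. Named pathway genes were, per list and comparison, up to 5 called genes with the smallest p. Some genes that this rule names are not reported here. Most-like genes were the highest by r among genes with at least 500 UMIs outside the lists. Alternatives were a pseudocount of 0.1, no filter, median-ratio and upper-quartile scaling, a replicate block, a single fit of all 25 libraries, a Y-linked covariate, +/+ as the only 8-week controls, a term for 2 sets of 8-week libraries, each library left out, and for single cells other filters and resolutions. A term for 3 sets, a fit without the 2 libraries apart and the endothelial sum as a covariate were added after seeing the data.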

Additional observations from a re-analysis of the deposited data

Results flagged for a closer look

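Of 20 groups of 5 or 6 libraries tested for a value far from the rest, 3 held one, where chance gives about 1 in 20. Hey1 was at 21.4 FPKM in D/D replicate 5, and the gap to the next library was a share of 0.708 of the group's range (critical value 0.625 for 6 libraries). That library also had the highest endothelial marker sum, 569 FPKM. Hey2 was at 5.74 FPKM in the library labelled +/+ replicate 5 (share 0.893, critical value 0.71 for 5 libraries) and at 9.80 FPKM in D/D replicate 6 (share 0.734). Those are the 2 libraries that stood apart in the clustering of all genes. Without them Hey2 ranged from 3.68 to 3.90 FPKM in +/+ and from 2.29 to 4.29 in D/D.

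In single cells, cluster 0, the macrophage-like cells (63 and 60 cells), went against other clusters. Hes1 there had 31 UMIs in the library labelled +/+ and 68 in the one labelled F/F, a log2 ratio of 1.34 (exact 95% interval 0.71 to 2.01), while its interval lay below 0 in 9 other clusters. Notch1 had 11 and 26 UMIs in cluster 0, a log2 ratio of 1.45 (0.38 to 2.62), and its interval lay below 0 in 1 cluster. In cluster 0, 14.9% of 3384 genes passed 1.5-fold. The differences between clusters were not tested.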

How the results depend on the processing

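No member was called between genotypes under any alternative run, and the counts of members called between stages stayed within 1.5 times. The numbers of genes called rest on few genes. At E11.5, 1 gene became 2 with the replicate block, 24 with all 25 libraries in a single fit and 1 to 2 when libraries were left out in turn. At E16.5, 1 became 2 with a pseudocount of 0.1, 3 with a Y-linked covariate and 0 to 2 without 1 library. For the interaction, 1 became 2 with a pseudocount of 0.1, 3 without the filter, 6 in the fit of all 25 libraries and 1 to 9 without 1 library, the 9 without E11.5 F/+ replicate 3. The log2 ratio of Hes1 in cardiomyocyte-like cells was -0.69 at Leiden resolution 0.5, against -0.47.

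Values that changed sign were none of them called. Hes1 at E11.5 (F/F against F/+) was 0.10 with the Y-linked covariate and -0.21 to 0.24 without 1 library. Between stages in F/+, Rbpj was 0.043 and 0.084 with median-ratio and upper-quartile scaling and -0.39 to 0.033 without 1 library, and Notch2 was -0.079 to 0.24 without 1 library. In F/F, Rbpj was 0.046 and 0.13 with those scalings and -0.27 to 0.17 without 1 library, and Hes1 was 0.0011 with upper-quartile scaling. At 8 weeks against E16.5, Dll4 was 0.088 with median-ratio scaling and 0.28 with the endothelial sum as a covariate, and Jag1 was 0.067 with median-ratio scaling. The causes were not tested.

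Same-numbered replicates did not pair in every comparison, and correlations of their deviations ran from -0.43 to 0.53. Between D/D and control at 8 weeks they were 0.53, 0.42 and 0.21 for replicates 1, 2 and 5. For replicates 3 and 4 they were -0.04 and -0.10. In the other comparisons none was over 0.1. With the replicate block 2 genes were called at E11.5, 1 at E16.5, 0 at 8 weeks, 1 for the interaction, and 5252, 5048 and 8183 in the 3 stage comparisons. Read depth of the bulk libraries is unknown, and in single cells Dll4 (92 UMIs) and Heyl (262 UMIs) allow only wide intervals.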

Other observations

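Other genes of the pathway also had their highest level in particular clusters at E11.5, read from both libraries summed and with no test. The receptor Notch4 was highest in the endothelial cluster 5 (17.3 CPM) and next in the endothelial cluster 3 (12.001), as was Egfl7, a secreted endothelial protein (356 and 224 CPM). Hes7 was at 61.1 CPM in cluster 3, against 6.11 in cluster 5. Nrg1, an endocardial growth factor, was at 40.2 and 32.6 CPM in those clusters, and in mesenchymal cluster 8 at 27.7. Mfng, which modifies receptors, was highest in the macrophage-like cluster 0 (29.2 CPM), followed by clusters 3 and 5 (21.5 and 19.7).

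Outside endothelium, Notch3 was highest in the unnamed cluster 15, led by genes such as Rgs5 and Eln (22.3 CPM), and in mesenchymal cluster 8 (20.2). Bmp10 was highest in the muscle cluster 6 with its trabecular markers (33.6 CPM), and Bmp2 in the muscle cluster 14 with its atrial markers and Shox2 (169). Snai1 was highest in the mesenchymal clusters 4 and 8 (80.0 and 78.3 CPM). Dlk1 was at 591 CPM in cluster 15 and at 3238 in the 13 hepatocyte-like cells of cluster 18, all from the library labelled +/+.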
